A study of Homo sapiens with 6 samples.

Results

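The 56 genes described here encode the machinery that copies DNA and the regulators that start S phase, and they were chosen by name: subunits of the origin recognition complex and the MCM helicase, loading factors, GINS and CDC45, the sliding clamp and its loader, replicative polymerases and primase, RPA, enzymes of Okazaki fragment maturation, E2F factors, cyclins E and A with CDC25A, and enzymes of deoxynucleotide supply. All 56 were found among the 26613 genes with a count in at least 1 library, and all 56 were among the 15607 genes that passed the filter on low counts. RNA was sequenced from 293T, an HEK293 derivative of human embryonic kidney origin that takes up nucleic acids easily. The mimic group is 3 libraries of cells given a miR-941 duplex at 10 nM with a cationic lipid reagent, 24 h after plating. The mock group is 3 libraries of cells given a scrambled oligo in parallel, for which the labels record no concentration. The transfections are labelled independent, and no library from untransfected cells was analysed here.

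Before S phase, the origin recognition complex, CDC6 and CDT1 load the MCM2 to MCM7 helicase onto DNA, and geminin blocks a repeat of loading within the cycle. CDC45 and GINS then turn the loaded helicase into an active motor, and primase, the polymerases, the clamp PCNA and its loader RFC follow it. Many of these genes are transcribed under the control of E2F factors, which the retinoblastoma protein and its relatives hold in check until cyclin-dependent kinases release them. 293T cells stably carry adenovirus E1A and SV40 large T antigen, which bind the retinoblastoma family, and this limits them as a model of normal control of S phase entry.

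The mimic carries miR-941, whose seed (bases 2 to 8) is in capitals in the RefSeq mature sequence, encoded by 5 gene copies on chromosome 20 (GRCh38.p14):
miR-941: cACCCGGCugugugcacaugugc
The site complementary to this seed is GCCGGGT. A 3′ UTR was taken as all exon bases after the stop codon of an annotated transcript, whatever the transcript type. With an early stop codon it can hold bases that are coding in other transcripts of the gene. Among the 56 members it was present in the longest annotated 3′ UTR of 2, CDT1 and GINS4, or 3.57%, against 706 of 13110 tested genes with a 3′ UTR, or 5.39%, and 81 of 919 fallen genes, or 8.81%. The members' longest 3′ UTRs were shorter, with a median of 1184.5 bases against 1652 bases over all these tested genes, and the part of length in the share was not tested. With every annotated 3′ UTR counted, POLE also holds it. None of the 7 members that fell after the mimic holds it in any annotated transcript, in the 3′ UTR or elsewhere. Searched in the same way, 5 of the 56 members (8.93%) and 2822 of the 13110 tested genes (21.5%) hold it.
POLE, the member that rose, has the shorter match CCGGGT, complementary to bases 2 to 7 (chr12:132624678-132624683, minus strand, GRCh38). It stands at position 6626 of the 7046 exon bases after the stop codon in the transcript used. These bases may include coding exons of other POLE transcripts.
POLE site: gccccgggccCCGGGTgcctctgcgt
A match to these letters does not show that the mRNA was bound.

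Total counts were 6401918 to 7651046 in mimic libraries and 6079420 to 7405330 in mock libraries, and the members' median level was 92.6 CPM, which are counts scaled to a common library size with TMM factors. CCNA1 had the fewest counts of the 56, with 25 to 38 counts in mimic libraries and 45 to 69 in mock libraries. Of 8 markers fixed for 293T cells, 6 were detected, with summed counts over the raw library total, without TMM factors, of 159 to 174 CPM in mimic libraries and 139 to 146 CPM in mock libraries, while NEFL and LHX1 were at 0. Of the 6, only NEFM did not overlap between groups, with 78.4 to 83.3 CPM in mimic and 53.9 to 58.4 CPM in mock libraries. Among 12 markers of other cell types, 8 were detected, and COL1A1 was the most abundant. The 4 at 0 in all libraries included the blood and endothelial genes PTPRC, HBB and PECAM1. On the same raw scale the sum of the 12 was 40.1 to 44.1 CPM in mimic libraries and 38.2 to 40.4 CPM in mock libraries. The part of either marker list in the results was not tested. On the second principal component mimic replicate 3 lay apart, at −12.5 against 5.14 and 8.88 for the other mimic libraries, and on the third mock replicate 3, at 11.2 against −7.54 and −4.16 for the other mock libraries.

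Most of the replication machinery differed little between mimic and mock cells, while the activators E2F1 and E2F2, the cyclins CCNE1 and CCNA1, the thymidine salvage enzyme TK1, the helicase subunit MCM7 and the flap nuclease FEN1 fell, and the polymerase POLE rose. In edgeR's quasi-likelihood test, calling genes at a Benjamini-Hochberg adjusted p under 0.05 across the whole table, 7 members fell and 1 rose. These 8 are 14.3% of the members, a share near the 13.0% called among all tested genes. By direction, 12.5% of the members fell, where 6.19% of all tested genes fell, and 1.79% rose, where 6.80% of all tested genes rose. The members were chosen with earlier results of these data known, so these shares are a description. The median log2 fold change was −0.03 over the members and 0.00 over all tested genes, and the median size regardless of sign was 0.07 against 0.12. The median level was 92.6 CPM for the members and 29.1 CPM for all tested genes. The part of level in these sizes was not tested. In bulk cultures, a change in the share of cells in one phase of the cycle and a change in mRNA per cell cannot be told apart.

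**Figure D1:**
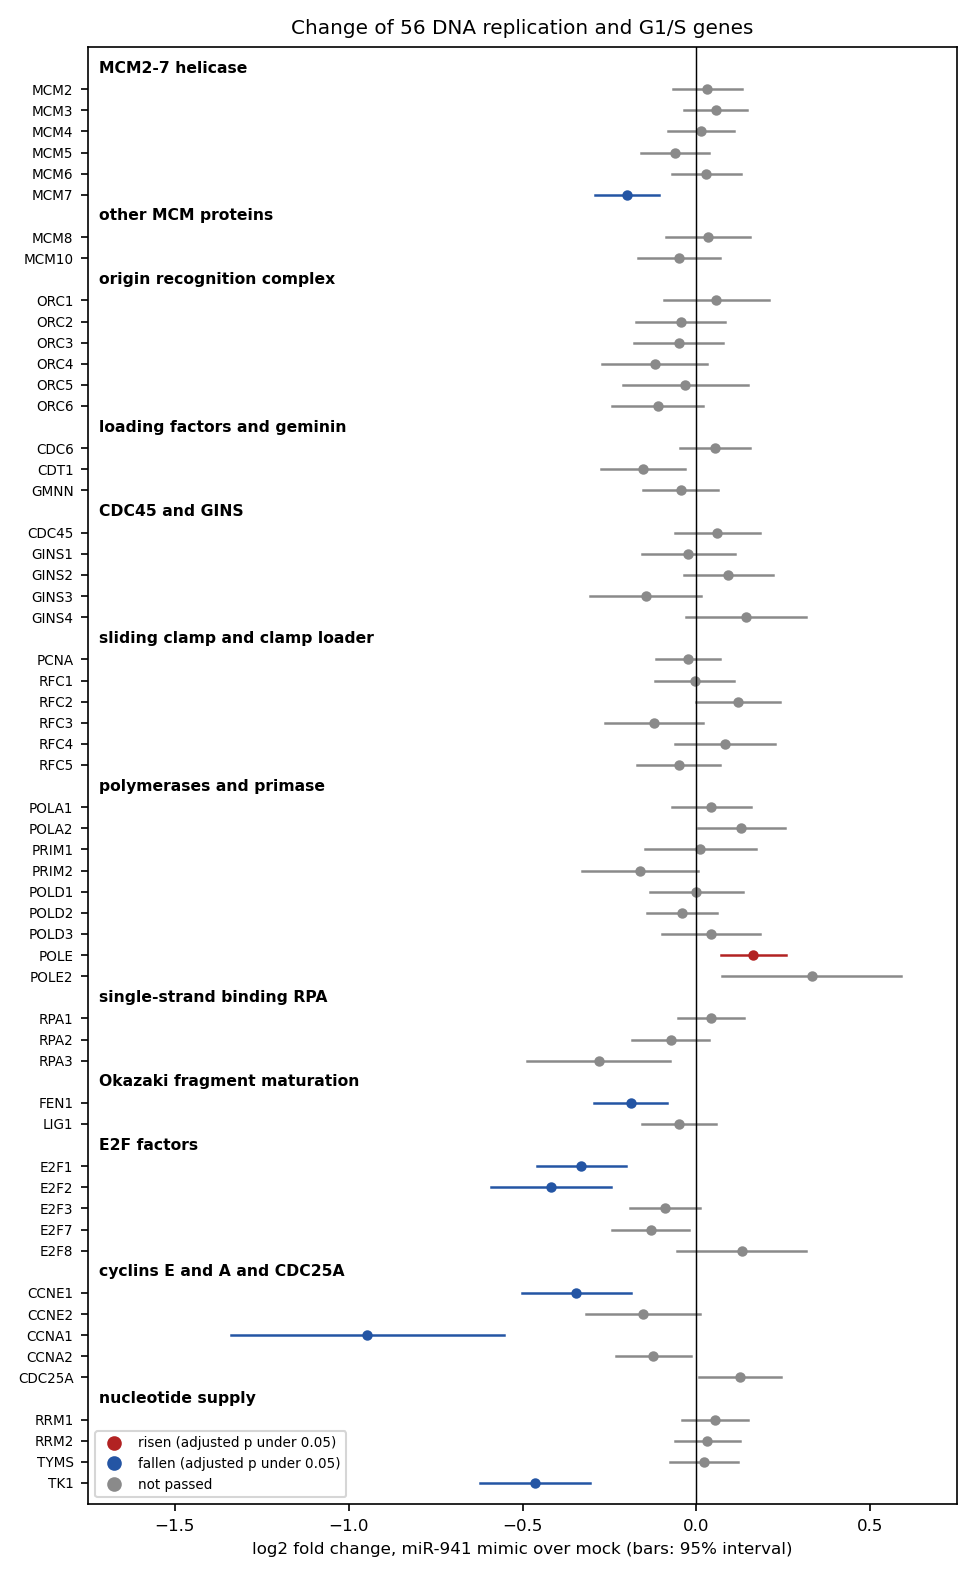
Log2 fold change (miR-941 mimic over mock) of each of the 56 members, grouped by role, with 95% intervals from edgeR's quasi-likelihood fit. Fallen members (blue) sit between −0.95 for CCNA1 and −0.19 for FEN1, the risen POLE (red) is at 0.16, and 48 members (grey) did not pass.

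Licensing begins with the origin recognition complex, whose 6 subunit genes ORC1 to ORC6 had log2 fold changes of −0.12 to 0.06, and none passed. ORC6, the subunit gene with the smallest p, had 76.7, 64.5 and 71.1 CPM in mimic libraries and 74.2, 78.3 and 77.4 CPM in mock libraries. The ranges overlapped, and the log2 fold change was −0.11 ± 0.07 (SE). The helicase loader CDC6, an ATPase, had 164, 167 and 177 CPM in mimic libraries and 165, 166 and 157 CPM in mock libraries, also overlapping, with a 95% interval of −0.05 to 0.15 on the log2 scale. CDT1, which brings the helicase to the origin, had 107, 96.8 and 89.1 CPM in mimic libraries and 114, 103 and 110 CPM in mock libraries. Mimic replicate 1 lay within the mock range, and the difference of −0.15 ± 0.06 did not pass (edgeR adjusted p = 0.0838). It passed without mimic replicate 1 (adjusted p = 0.0207) and without mock replicate 2 (adjusted p = 0.0452), and over all alternatives its adjusted p ran from 0.0207 to 0.341. Geminin (GMNN), the inhibitor of CDT1, averaged 123 ± 4.94 CPM in mimic cells and 126 ± 2.16 CPM in mock cells (SD, n = 3 each) and did not pass.

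Of the 6 genes of the MCM2 to MCM7 helicase, MCM7 fell and the other 5 did not pass. MCM7 (ENSG00000166508, chr7:100092728-100101940, minus strand, GRCh38) had 466, 496 and 436 CPM in mimic libraries and 531, 537 and 540 CPM in mock libraries. All mimic libraries lay below all mock libraries, the mimic libraries were spread more widely, and the lowest was mimic replicate 3, which lay apart on the second principal component. The log2 fold change was −0.20 ± 0.05, or 13.0% lower, with an edgeR adjusted p of 0.00114. The call held without each library in turn, with log2 fold changes between −0.25 and −0.16.

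The other helicase genes had log2 fold changes of −0.06 to 0.06, and the 95% interval of each lay within a 1.2-fold change in either direction. MCM2, for example, had 171, 172 and 164 CPM in mimic libraries and 167, 169 and 161 CPM in mock libraries. Relative to the geometric mean of these 5 genes, MCM7 stood at 1.97, 2.05 and 1.86 in mimic libraries and 2.23, 2.26 and 2.33 in mock libraries, so that the ratio too did not overlap between groups. This ratio was computed after MCM7 was seen to differ and is a description. MCM7 shares 392 exon bases with AP4M1 on the opposite strand, a gene at 12.0% of its level with a log2 fold change of 0.20, and the strand setting of the counting is unknown here, so reads of the 2 genes may be mixed there. Levels per kilobase here divide by the merged exons of all annotated transcripts, which can be longer than a single mRNA. On that scale MCM3 and MCM7 were highest of the 6, with 127 and 106 CPM per kb in mimic cells and 122 and 122 CPM per kb in mock cells. MCM5, with 7338 merged bases, was lowest, 25.7 CPM per kb in mimic cells and 26.8 CPM per kb in mock cells. Without division by length, MCM5 averaged 188 CPM in mimic cells and 196 CPM in mock cells. That was above MCM2, at 169 and 165 CPM, and MCM6, at 173 and 170 CPM.

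**Figure D2:**
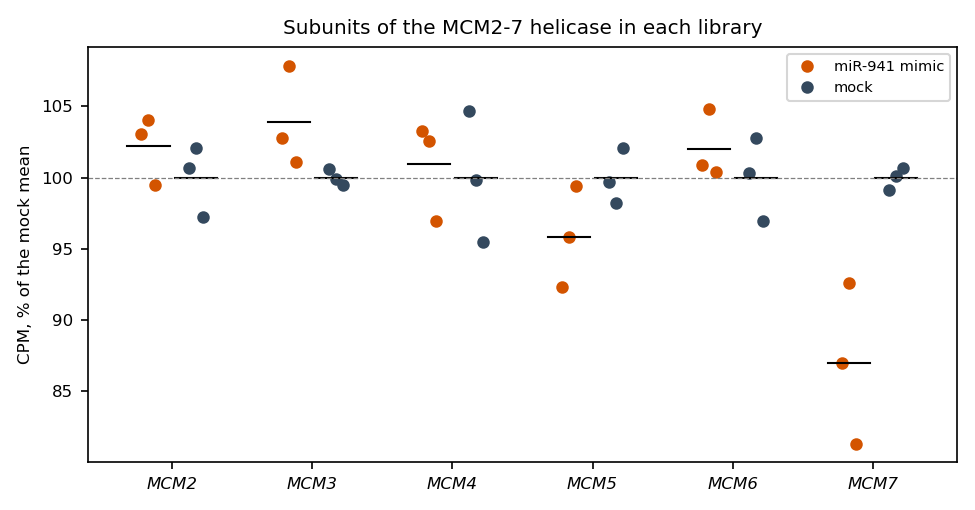
CPM of the 6 helicase subunit genes in each library, as a percentage of the mock mean of that gene, with mimic libraries (orange) left of mock libraries (dark) and a line at each group mean. MCM7 is at 436 to 496 CPM in mimic libraries against 531 to 540 CPM in mock libraries, the only subunit gene of the 6 that passed the test.

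MCM8, which acts in recombination, and MCM10, which helps to activate the helicase, did not pass either. MCM10 had 98.9, 88.6 and 95.4 CPM in mimic libraries and 97.0, 101 and 94.6 CPM in mock libraries. CDC45 and the GINS genes, which complete the active helicase, had log2 fold changes of −0.15 to 0.14 and no calls. GINS3, the gene with the smallest p in that group, had 40.5, 38.0 and 35.1 CPM in mimic libraries and 41.9, 42.5 and 41.5 CPM in mock libraries. Its groups did not overlap, yet the difference of −0.15 ± 0.08 did not pass (edgeR adjusted p = 0.254).

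At the fork, PCNA and the 5 RFC genes had log2 fold changes of −0.12 to 0.12, and none passed. PCNA, the ring that tethers polymerases to DNA, had 374, 385 and 354 CPM in mimic libraries and 394, 378 and 360 CPM in mock libraries. These ranges overlapped, and the 95% interval ran from −0.12 to 0.07. Per kilobase it had the highest level of all members, 252 CPM per kb in mimic cells and 256 CPM per kb in mock cells. RFC2, a clamp loader subunit, had 94.2, 87.3 and 89.1 CPM in mimic libraries and 83.1, 85.2 and 80.7 CPM in mock libraries, without overlap, and did not pass at 0.12 ± 0.06 (edgeR adjusted p = 0.199).

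Among 9 polymerase and primase genes, POLE rose. It encodes the catalytic subunit of polymerase epsilon, which extends the leading strand. POLE (ENSG00000177084, chr12:132623753-132687365, minus strand, GRCh38) had 297, 307 and 305 CPM in mimic libraries and 283, 270 and 257 CPM in mock libraries. The groups did not overlap, and the log2 fold change of 0.16 ± 0.05 corresponds to 12.0% more in mimic cells (edgeR adjusted p = 0.0115). Without mock replicate 3, the lowest mock library, the change was 0.13 and did not pass (adjusted p = 0.126), while its adjusted p over all alternatives ran from 0.00744 to 0.126.

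The other epsilon subunit among the members, POLE2, had 14.9, 18.4 and 15.9 CPM in mimic libraries and 14.2, 10.8 and 14.1 CPM in mock libraries. All 3 mimic libraries were higher, but the difference of 0.33 ± 0.13 did not pass (edgeR adjusted p = 0.0787). The subunits of polymerases alpha and delta and of primase had log2 fold changes of −0.16 to 0.13, with no calls. The primase gene PRIM1 shares 33 exon bases on the same strand with NACA, which stood at 1546% of its level, so reads may be mixed there. POLD1, the catalytic subunit of polymerase delta, averaged 109 ± 8.37 CPM in mimic cells and 110 ± 12.7 CPM in mock cells (SD, n = 3 each).

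RPA coats single-stranded DNA. Its largest subunit gene, RPA1, averaged 242 ± 3.58 CPM in mimic cells and 235 ± 2.80 CPM in mock cells, and RPA2 averaged 114 ± 5.34 CPM in mimic cells and 120 ± 3.15 CPM in mock cells (SD, n = 3 each). RPA3, the smallest subunit, had 21.0, 19.1 and 20.6 CPM in mimic libraries and 23.2, 25.9 and 24.8 CPM in mock libraries. These groups did not overlap, and the difference of −0.28 ± 0.10 was just outside the threshold (edgeR adjusted p = 0.0596). UMAD1, at a level close to that of RPA3, shares 118 exon bases with it on the opposite strand.

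FEN1, the nuclease that trims the flaps between Okazaki fragments, fell. FEN1 (ENSG00000168496, chr11:61792637-61797244, plus strand, GRCh38) had 142, 153 and 143 CPM in mimic libraries and 176, 164 and 159 CPM in mock libraries. The groups did not overlap and the log2 fold change was −0.19 ± 0.05 (edgeR adjusted p = 0.00805), but the call was lost without mimic replicate 1 (adjusted p = 0.0708) and without mock replicate 1 (adjusted p = 0.129). Over all alternatives the adjusted p ran from 0.00388 to 0.129. Exons of FEN1 overlap FADS2 on the same strand, over 49 bases, and TMEM258 on the other, over 166 bases, and these genes changed by 0.20 and −0.26 on the log2 scale. LIG1, the ligase that seals the same fragments, had a log2 fold change of −0.05 ± 0.05 and did not pass.

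The activating factors E2F1 and E2F2 both fell, by 20.5% and 25.1%. E2F1 (ENSG00000101412, chr20:33675683-33686404, minus strand, GRCh38) had 66.6, 70.8 and 62.2 CPM in mimic libraries and 86.8, 81.1 and 83.6 CPM in mock libraries. Every mimic library was below every mock library. The log2 fold change was −0.33 ± 0.06 with an edgeR adjusted p of 9.45e-05. E2F2 (ENSG00000007968, chr1:23506430-23531220, minus strand, GRCh38) had 28.5, 27.7 and 33.1 CPM in mimic libraries and 40.1, 38.0 and 40.7 CPM in mock libraries, again without overlap, and a log2 fold change of −0.42 ± 0.09 (edgeR adjusted p = 0.000294). Both calls held in every alternative, with a largest adjusted p of 0.00318 for E2F1 and 0.00629 for E2F2.

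The third activator, E2F3, had 152, 155 and 161 CPM in mimic libraries and 163, 169 and 164 CPM in mock libraries. All mimic libraries were lower, but −0.09 ± 0.05 did not pass (edgeR adjusted p = 0.253). The atypical factors E2F7 and E2F8 repress E2F targets late in the cycle. E2F7 had 114, 111 and 123 CPM in mimic libraries and 123, 135 and 122 CPM in mock libraries, with −0.13 ± 0.06 (adjusted p = 0.115 by edgeR), and passed without mimic replicate 3 (adjusted p = 0.0182, the lowest over its alternatives, whose highest was 0.484). E2F8 had 30.5, 30.2 and 30.7 CPM in mimic libraries and 27.4, 30.9 and 24.8 CPM in mock libraries, and its difference of 0.13 ± 0.09 did not pass. Whether the change of E2F1 and E2F2 differed from that of the other E2F genes was not tested.

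Cyclin E1, which activates CDK2 at the start of S phase, fell. CCNE1 (ENSG00000105173, chr19:29811898-29824308, plus strand, GRCh38) had 44.3, 36.2 and 44.4 CPM in mimic libraries and 48.7, 55.3 and 54.8 CPM in mock libraries. No mimic library reached the lowest mock library, and the log2 fold change was −0.35 ± 0.08, or 21.3% lower (edgeR adjusted p = 0.00112, and at most 0.0353 in the alternatives). Its paralog CCNE2 had 35.1, 36.2 and 34.9 CPM in mimic libraries and 41.0, 36.6 and 40.7 CPM in mock libraries. Here mock replicate 2 lay close to the mimic libraries, and −0.15 ± 0.08 did not pass (edgeR adjusted p = 0.240). CCNE2 shares 1629 exon bases with INTS8 on the opposite strand, which stood at 192% of the level of CCNE2, and the CCNE2 value is therefore uncertain.

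Cyclin A1 (CCNA1), the form of cyclin A known mainly from the germ line, showed the largest change of the 56. CCNA1 (ENSG00000133101, chr13:36431520-36442882, plus strand, GRCh38) had 5.01, 3.91 and 3.94 CPM in mimic libraries and 9.36, 6.26 and 9.51 CPM in mock libraries. The groups did not overlap and the log2 fold change was −0.95 ± 0.20, or 48.1% lower (edgeR adjusted p = 0.000291). DESeq2 gave no adjusted p for this gene, and in the alternatives that gave a value the adjusted p was at most 0.00752. CCNA1 also had the lowest level of the 56 per kilobase, 1.79 CPM per kb in mimic cells and 3.49 CPM per kb in mock cells.

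Cyclin A2, the cyclin A of dividing somatic cells, stood at 40.7 CPM per kb in mimic cells and 44.3 CPM per kb in mock cells. CCNA2 had 116, 111 and 115 CPM in mimic libraries and 122, 126 and 125 CPM in mock libraries. All mimic libraries were lower, and −0.12 ± 0.05 did not pass (edgeR adjusted p = 0.130). EXOSC9, at 62.4% of the level of CCNA2, shares 254 exon bases with it on the opposite strand. CDC25A, the phosphatase that activates cyclin-CDK complexes, was higher in all mimic libraries, with 93.1 ± 1.82 CPM in mimic cells and 85.5 ± 2.28 CPM in mock cells (SD, n = 3 each), and its difference of 0.12 ± 0.06 did not pass (edgeR adjusted p = 0.168).

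Thymidine kinase 1 (TK1), which makes dTMP from salvaged thymidine, fell by 27.5%. TK1 (ENSG00000167900, chr17:78174075-78187233, minus strand, GRCh38) had 61.3, 66.9 and 50.7 CPM in mimic libraries and 90.3, 75.9 and 81.3 CPM in mock libraries. Groups did not overlap, both were widely spread, and the log2 fold change was −0.46 ± 0.08 (edgeR adjusted p = 5.44e-05, and at most 0.00117 in the alternatives). The enzymes of new synthesis among the members did not pass, and whether their change differed from that of TK1 was not tested. RRM1 and RRM2, the subunits of ribonucleotide reductase, had 95% intervals of −0.04 to 0.15 and −0.06 to 0.13. RRM1 had 269, 260 and 253 CPM in mimic libraries and 256, 254 and 245 CPM in mock libraries, and RRM2 had 250, 233 and 238 CPM in mimic libraries and 235, 233 and 238 CPM in mock libraries, both with overlap. Thymidylate synthase (TYMS), which makes dTMP from dUMP, had 297, 262 and 271 CPM in mimic libraries and 285, 270 and 263 CPM in mock libraries, with an interval of −0.08 to 0.12. ENOSF1, at 33.3% of the level of TYMS, shares 967 exon bases with it on the other strand.

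**Figure D3:**
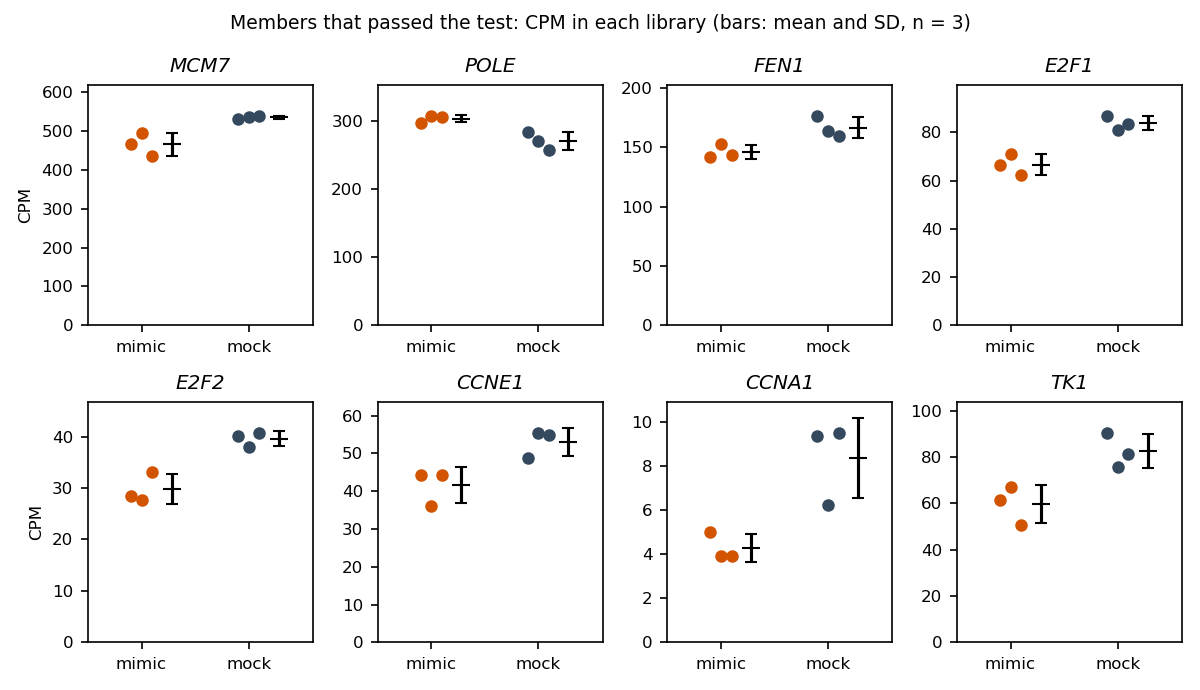
CPM of the 8 members that passed the test in each mimic library (orange) and each mock library (dark), with the mean and SD of each group (n = 3), on axes that start at 0. POLE is higher in all mimic libraries, and the other 7 genes are lower in all mimic libraries, down to 3.91 CPM for CCNA1.

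Across the 48 members that did not pass, log2 fold changes ran from −0.28 for RPA3 to 0.33 for POLE2. In 38 of them the 95% interval lay wholly within a 1.2-fold change in either direction, so a larger difference was outside the interval for most of the machinery. The same held for 5325 of the 13580 tested genes that did not pass. The members' median level was higher than that of all tested genes, and the part of level in this count was not tested. Exons of 15 members overlap those of another tested gene, so reads may be mixed there. RFC5 shares 186 exon bases with WSB2 on the opposite strand, whose log2 fold change was −0.66. RFC4 shares 21 with EIF4A2, also on the opposite strand and at 452% of the level of RFC4. All mimic libraries lay below all mock libraries in 13 members, or 23.2%, where 13.9% of all tested genes did so, and above them in 6, or 10.7%, where 14.4% of all tested genes did. An unadjusted p under 0.05 was found for 15 members, or 26.8%, beside 25.5% of all tested genes. With DESeq2's Wald test 6 members fell and 1 rose, and the other fallen member, CCNA1, was given no adjusted p. That test called 1015 genes over the whole table, against 2027 in the reported test. Without each library in turn 6 to 8 members fell and 0 to 1 rose, with 1302 to 2061 genes called over the whole table.

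The start regions of these genes were searched for the E2F-type motif in RefSeq windows of 300 bases (250 before and 50 after the gene start, GRCh38.p14). Many of these genes are known to be under E2F control, so a high share of the motif can follow from the choice of members. The letters TTTCCCGC, TTTCGCGC, TTTGCCGC and TTTGGCGC were counted on both strands, and matches of different letters may overlap. Windows were found for 48 of the 56 members, 60 windows in all. A match stood in 24 windows, or 40.0%, against 1164 of 35116 windows of all genes, or 3.31%, and 771 of 16085 windows of tested genes, or 4.79%. The CCAAT box, a common promoter element searched on both strands, stood in 58.3% of the members' windows and in 34.6% of all windows. Genes with an E2F-type match numbered 24, of which 3 fell (E2F1, E2F2 and MCM7), 1 rose (POLE) and 20 did not pass. Of all 48 members with a window, 7 fell and 40 did not pass, and of all tested genes 6.19% fell and 6.80% rose. Whether calls went with the motif was not tested. The fallen CCNE1, CCNA1, FEN1 and TK1 had windows without these letters, which says nothing of E2F binding there.

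The following 30-base stretches show 1 match per gene in capitals, 5′ to 3′ on the strand of the gene. They are from the fallen E2F1, E2F2 and MCM7, the risen POLE, and CDC6 and PCNA, which hold the motif and did not pass. E2F1 and MCM7 hold 2 matches each, of which only 1 is in capitals. A match read as GCGGGAAA, GCGCCAAA or the like is the motif on the opposite strand.
E2F1, chr20:33686387-33686416, minus strand: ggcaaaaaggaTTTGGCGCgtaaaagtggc
E2F2, chr1:23531257-23531286, minus strand: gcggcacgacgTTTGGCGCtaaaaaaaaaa
MCM7, chr7:100101388-100101417, minus strand: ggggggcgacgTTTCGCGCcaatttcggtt
POLE, chr12:132687342-132687371, minus strand: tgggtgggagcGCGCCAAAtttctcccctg
CDC6, chr17:40287875-40287904, plus strand: ggccattcggaTTTGGCGCgagcgcggctg
PCNA, chr20:5126663-5126692, minus strand: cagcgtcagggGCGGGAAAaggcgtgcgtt
In the stretches shown, E2F1, CDC6 and E2F2 share the same 8 letters. Their log2 fold changes were −0.33, 0.05 and −0.42 in that order, and the part of the motif in these was not tested.

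Genes that work beside the members were taken from 4 lists of 88 tested genes, of which 16 fell (18.2%) and 6 rose (6.82%). Of all tested genes, 6.19% fell and 6.80% rose. These lists too were chosen with earlier results of these data known. In the list of origin firing and fork accessory genes, 4 of 28 rose (14.3%) and 2 fell (7.14%). POLE4, the small histone-fold subunit of polymerase epsilon, fell to 9.89, 10.1 and 8.97 CPM in mimic libraries, against 16.1, 14.6 and 20.2 CPM in mock libraries. Its log2 fold change of −0.80 ± 0.14 (edgeR adjusted p = 1.04e-05) was opposite in sign to that of POLE, and its partner POLE3 had 0.06 ± 0.05 and did not pass. TIMELESS, a fork protection factor, had 202, 202 and 204 CPM in mimic libraries and 174, 177 and 170 CPM in mock libraries, a rise of 0.22 ± 0.05. TIPIN, its binding partner, rose by 0.26 ± 0.08. The histone chaperone ASF1B fell, at −0.29 ± 0.06, and CHAF1A, the large subunit of chromatin assembly factor 1, rose by 0.16 ± 0.05, a call that was lost in 4 alternatives (adjusted p up to 0.115 and down to 0.0142).

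In the list of G1/S control, 7 of 24 genes fell (29.2%) and 2 rose (8.33%), where 6.19% of all tested genes fell and 6.80% rose. The CDK inhibitors CDKN1A (p21) and CDKN1B (p27) fell, CDKN1A to 177, 182 and 180 CPM in mimic libraries, against 231, 216 and 233 CPM in mock libraries, and CDKN1B to 73.2 ± 1.88 CPM in mimic cells, against 89.6 ± 2.15 CPM in mock cells (SD, n = 3 each). CDKN2A, which encodes the inhibitor p16 and, from another reading frame, ARF, rose to 202 ± 13.1 CPM in mimic cells, against 165 ± 16.9 CPM in mock cells. CKS1B, a small CDK-binding protein, fell to 8.74 ± 0.45 CPM in mimic cells, against 14.9 ± 1.62 CPM in mock cells, with −0.76 ± 0.14. RB1, the retinoblastoma gene, was at −0.09 ± 0.06, CCND1, or cyclin D1, at −0.12 ± 0.06, and CDK2, the partner of cyclins E and A, at −0.01 ± 0.06, and none of these passed (edgeR adjusted p = 0.382, 0.162 and 0.933). The other calls of the list were E2F5, CDKN2B, CCND3 and CDK4, which fell, and RBL2, which rose. Exons on the opposite strand overlap CDK4 (TSPAN31, 1369 bases), E2F5 (RBIS, 969 bases), RBL2 (AKTIP, 610 bases) and CCND1 (LTO1, 497 bases), so their values are uncertain.

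Nucleotide metabolism genes outside the members had 3 fallen of 14 (21.4%) and no risen, where 6.19% of all tested genes fell and 6.80% rose. NME2, a nucleoside diphosphate kinase, was at −0.21 ± 0.05, a value that cannot be given to NME2 alone, since 603 of its exon bases are shared on the same strand with the readthrough gene NME1-NME2, whose log2 fold change was also −0.21. SHMT2, the mitochondrial serine hydroxymethyltransferase, was at −0.17 ± 0.05, and CMPK1, a UMP/CMP kinase, at −0.16 ± 0.06, a call lost in 6 alternatives (adjusted p up to 0.226 and down to 0.00427). The G2 and M phase list had 4 fallen of 22 (18.2%) and no risen. The fallen genes were PLK1 (−0.55 ± 0.05), AURKA (−0.42 ± 0.06), CCNB1 (−0.25 ± 0.05) and CDK1 (−0.21 ± 0.05). The proliferation marker MKI67 (0.06 ± 0.04) and TOP2A (−0.05 ± 0.04) did not pass. POLE3, TIPIN, MKI67 and TOP2A were chosen after their values were seen. The CDK1 call was lost without mock replicate 1 (adjusted p = 0.0682, the highest over its alternatives, with a lowest of 0.000976).

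**Figure D4:**
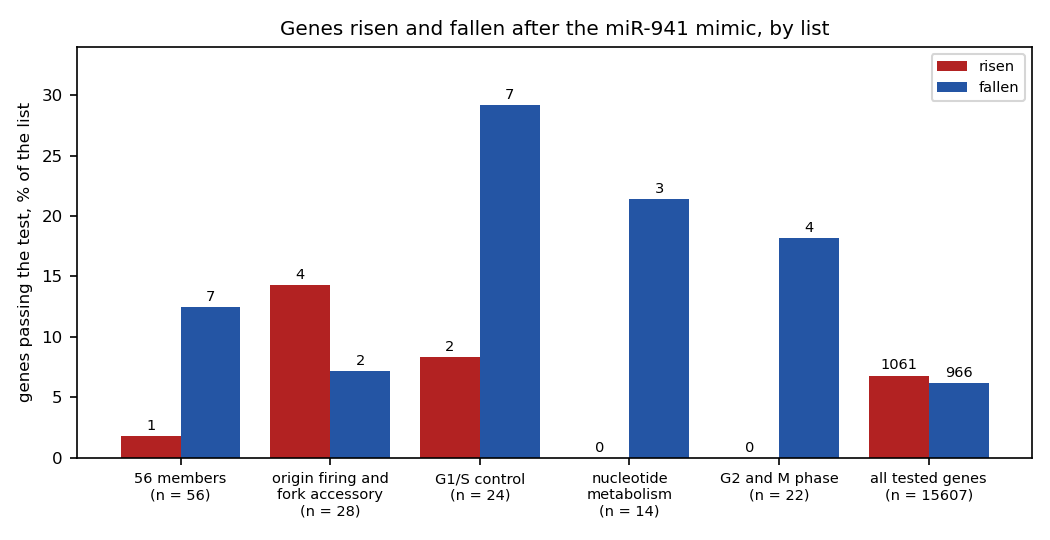
Percentage of genes in each list that rose (red) or fell (blue) after the mimic by edgeR's test, with the number of genes above each bar. The members have 7 fallen and 1 risen of 56, the list of G1/S control 7 fallen and 2 risen of 24, and all tested genes 966 fallen and 1061 risen of 15607.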

How the data were processed

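The authors' deposited files hold raw counts per Ensembl gene, 1 table for each of 6 libraries, with no normalization. Per the labels' protocols, Trizol RNA was depleted of ribosomal RNA and sequenced over 100 bases from 1 end. STAR, edgeR and hg19 appear in the submitters' processing notes. No source used here gives the counting program, annotation or strand setting. Genes without a count are missing from a table and were taken as 0. Symbols came from a gene name table (25141 genes) or GENCODE release 29 (95 more). Intervals and depth cover counting and replicate error, and PCR duplicates could not be removed.

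Samples were grouped by title. Counts were filtered with filterByExpr, scaled with TMM and tested with edgeR's quasi-likelihood test (robust, two-sided, with the group as the only term), adjusted by Benjamini-Hochberg over 15607 genes. CPM errors are SDs and log2 errors are standard errors. The floor of 3 counts is 0.392 to 0.493 CPM here. Same-group libraries differed by 1.27 to 2.38 times sampling noise, so each counted as 1 replicate. Members and lists were chosen with earlier results of these data known. Values in every library are given for each member that passed, for the member with the smallest p in each role without one, and for 17 members fixed by name. Other members with values were chosen after these were seen. Up to 4 passing genes per related list and other genes fixed by name were named, and some items that these rules select are not reported here. Sites, exon lengths and overlaps came from GENCODE 29 on GRCh38, not the authors' build. Alternatives were DESeq2, other scalings, other filters, a replicate block and leaving out each library. Software was edgeR 4.0.16, DESeq2 1.42.0 and limma 3.58.1 in R 4.3.3.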

Additional observations from a re-analysis of the deposited data

How the results depend on the processing

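Over all tested genes 2027 were called, against 1015 with DESeq2's Wald test and 1302 to 2061 when 1 library was left out. Without each library in turn the members' counts were 6 to 8 fallen and 0 to 1 risen, the 0 arising without mock replicate 3, which ended the call of POLE. Their median log2 fold change stayed between −0.03 and −0.01. Among the related genes 3 to 6 rose and 12 to 19 fell when 1 library was left out, and 3 rose with DESeq2, against 6 and 16 in the reported test. Alternatives for these related counts were added after seeing the data. Values near 0 changed sign when 1 library was left out for PCNA (−0.057 to 0.0072), TYMS (−0.034 to 0.058) and CDK2 (−0.041 to 0.028). Among members MCM7, E2F1, E2F2, CCNE1, CCNA1 and TK1 kept their call in every alternative that gave an adjusted p, including other scalings, no filter on low counts and a filter at 5 CPM. With every annotated 3′ UTR in place of the longest, 3 members held the GCCGGGT site, against 2. The cause of these shifts was not tested.

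Same-numbered libraries did not deviate together, with correlations of 0.09, −0.08 and −0.05 over 12886 genes, and not every library correlated best with its own number, so the numbers were not taken as pairs. A fit with the replicate block called 1819 genes, 7 fallen and 1 risen members, and the same 8 members as without it, with 6 risen and 14 fallen related genes and a members' median of −0.03. Of the named genes CMPK1 lost its call under the block (adjusted p = 0.0574).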
